A study of Mus musculus with 12 samples.

Results

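The inhibitory surface receptors of B cells and the phosphatase that they recruit were followed here as 9 genes, Btla, Cd22, Cd72, Fcgr2b, Siglecg, Pecam1, Lair1, Cd5 and Ptpn6. Every probe set that the platform annotation assigns to these symbols alone was taken, which gave 17 of the 45101 probe sets on the array and 9 of its 18194 genes. RNA of the cell line BL#19, which was derived from murine Burkitt lymphoma (BL) and altered at Foxo1 by CRISPR/Cas9, was measured on 12 Affymetrix mouse arrays. In the genotype names, wt stands for the wild-type FOXO1 allele and mt for an allele with the substitution T24P, which changes a threonine that the kinase AKT phosphorylates. The 4 groups of 3 arrays were wt+/mt+ with both alleles, wt-/mt+ with the wild-type allele knocked out, wt+/mt- with the T24P allele knocked out, and wt-/mt- with both knocked out. Below, mt loss in wt- cells compares wt-/mt- with wt-/mt+, wt loss in mt- cells compares wt-/mt- with wt+/mt-, and the same losses in wt+ and in mt+ cells compare the single knockouts with wt+/mt+. All 4 share the lymphoma line, so no group is a normal B cell, and 1 free-text label speaks of germinal center B cells where the cell type label says Burkitt lymphoma. Whether arrays of the same genotype come from separate cultures or clones is not given in the labels, so p-values measure the spread between these arrays, and 1 edited clone may stand for a whole genotype.

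Signalling through the B cell receptor is held in check by surface proteins whose cytoplasmic tails carry immunoreceptor tyrosine-based inhibitory motifs (ITIMs). When a Src-family kinase phosphorylates these tyrosines, the tail binds the phosphatase SHP-1, encoded by Ptpn6, or, in the case of FcγRIIB, the inositol phosphatase SHIP, encoded by Inpp5d. Cd22 and Siglecg encode Siglecs, which bind sialic acid, Fcgr2b encodes the Fc receptor that binds IgG in immune complexes, Btla encodes a receptor for HVEM (Tnfrsf14), and Cd72 encodes a C-type lectin-like receptor. Pecam1 and Lair1 also carry ITIMs, and Cd5 is a negative regulator typical of T cells and B-1 cells. Foxo1 is a forkhead transcription factor that AKT phosphorylation removes from the nucleus.

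Promoter windows of 250 bases before an annotated start were available from RefSeq (GRCm38.p6) for 8 of the 9 genes, and for Pecam1 none was used. The windows were searched on both strands for GTAAACA and GTAAATA, 2 letter strings close to the forkhead consensus that cannot match at the same bases. Either string was present in 5.76% of 32851 such windows, GTAAACA in 3.17% and GTAAATA in 2.73%. Of the 9 windows of these genes, 0 held GTAAACA and 3 held GTAAATA, namely both windows of Siglecg and the window of Lair1. The 2 windows of Siglecg overlap and hold the same match, so the 3 windows are not 3 separate places. In Siglecg the string began 195 and 236 bases before the 2 annotated starts, and in Lair1 it lay on the strand opposite to the gene, 168 bases before the start, where it reads TATTTAC. The windows of Btla, Cd22, Cd72, Fcgr2b, Cd5 and Ptpn6 held neither string, which says only that these letters are not in these windows. Printed 5′ to 3′ on the strand of the gene are the stretches that lie outside the annotated gene for a receptor whose level fell (Fcgr2b, chr1:170976072-170976321, minus strand), for the receptor with the string (Siglecg, chr7:43407989-43408191, plus strand) and for the phosphatase (Ptpn6, chr6:124738710-124738959, minus strand), and 30 bases around the match in Lair1 (chr7:4063354-4063383, minus strand, inside the annotated gene). Capitals mark a match.
Fcgr2b: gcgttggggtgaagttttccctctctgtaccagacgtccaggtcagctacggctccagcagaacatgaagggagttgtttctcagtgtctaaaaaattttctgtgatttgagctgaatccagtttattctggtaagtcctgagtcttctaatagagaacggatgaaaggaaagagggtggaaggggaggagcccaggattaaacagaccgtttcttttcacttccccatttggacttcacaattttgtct
Siglecg: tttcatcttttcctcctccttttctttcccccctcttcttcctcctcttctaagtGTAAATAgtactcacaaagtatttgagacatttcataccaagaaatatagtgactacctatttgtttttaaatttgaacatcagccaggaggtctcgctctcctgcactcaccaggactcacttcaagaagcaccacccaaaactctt
Ptpn6: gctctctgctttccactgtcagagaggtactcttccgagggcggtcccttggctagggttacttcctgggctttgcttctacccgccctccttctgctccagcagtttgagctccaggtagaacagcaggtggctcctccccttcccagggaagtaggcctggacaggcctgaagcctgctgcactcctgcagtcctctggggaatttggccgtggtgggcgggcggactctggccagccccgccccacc
Lair1: ttattcttgcaTATTTACagacaggcaaac

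Values are log2 expression levels made with RMA, and changes are differences of these levels, tested with limma. A change was called when its p, adjusted by Benjamini and Hochberg, lay under 0.05. Foxo1 itself lay at 10.23, 9.39 and 10.34 in the wt-/mt- arrays and between 11.16 and 12.10 in the other 9, a change of -1.65 (SE 0.23, adjusted p = 0.00122) against wt+/mt+. Whether its probe set lies within the edited part of the gene is not given, so this level checks the labels only in part. The median SD between the arrays of a genotype was 0.0952 with both alleles, 0.111 with mt alone, 0.133 with wt alone and 0.261 with neither. Each test was therefore also run with 1 weight per genotype, called the weighted fit below, beside the fit in which all genotypes share an estimate of the spread. Of 7 B cell markers, the 6 matched here lay above the array median on every array. Their mean level ran from 11.05 to 11.32 on the 9 arrays of the other genotypes and was 11.32, 10.52 and 10.23 on wt-/mt- replicates 1, 2 and 3, and its part in the results below was not tested. Of 7 T cell markers, Cd3e, Cd4 and Cd8a lay above the median on 12 arrays and Cd3d, Cd3g, Thy1 and Cd28 on 0, and the mean level of the list ran from 5.57 to 5.67 on the arrays with mt and from 5.68 to 5.82 on those without. Of 7 myeloid markers, Csf1r, Adgre1 and Fcgr1 lay above it on 12 arrays and the other 4 on 0 (list mean 5.75 to 5.90 with mt, 5.85 to 6.07 without), and of 6 endothelial markers, Kdr on 12, Cdh5 on 9 and Tek, Tie1, Vwf and Erg on 0 (5.20 to 5.56 with mt, 5.36 to 5.58 without). The list means of the plasma cell (9.31 to 9.96), NK cell (5.90 to 7.08) and platelet markers (5.60 to 5.89) are ranges over all 12 arrays. Sdc1, Xbp1, Irf4 and Jchain lay above the median on 12 arrays and Prdm1 on 0. Among the NK cell markers, Eomes lay above it on 12, Prf1 on 9 and Ncr1 and Gzma on 0. Eomes was at 6.92 on wt-/mt- replicate 1 and between 10.87 and 11.90 on the other arrays. Of the platelet markers, Itga2b lay above it on 12, Gp9 on 11 and Pf4 and Ppbp on 0. The part of these cell types in the results was not tested. For the actin control probes the 3′ to 5′ difference reached 2.17 in wt+/mt- replicate 1 and 1.71 in replicate 2, and elsewhere ran from 1.06 to 1.29. The bioD hybridization control lay between 13.35 and 13.56 on the 6 arrays with mt and between 12.32 and 12.93 on the 6 without. In RNA from a whole culture, fewer cells with a transcript and less RNA per cell cannot be told apart.

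Of the 9 genes, 6 were expressed above the array median on all 12 arrays: Btla, Cd22, Cd72, Fcgr2b, Siglecg and Ptpn6. Pecam1, Lair1 and Cd5 lay above it on 0 arrays and were left out of the fit over 11458 genes, but were measured in a fit over all 45101 probe sets. By probe set, 11 of the 17 were above the median on every array and 6 on none, the latter being those of the 3 dim genes and the fifth probe set of Fcgr2b.

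**Figure D1:**
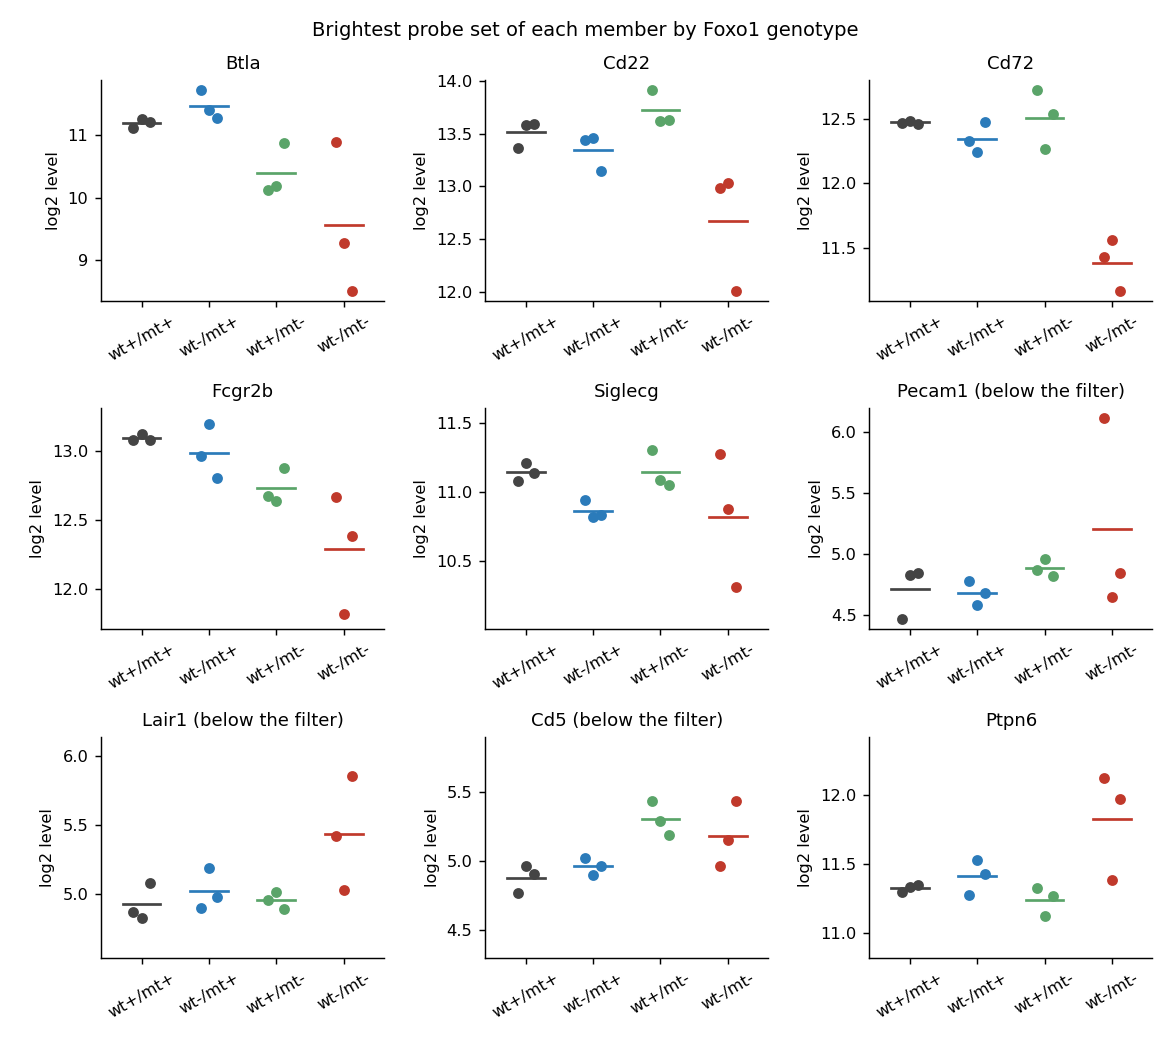
Log2 level of the brightest probe set of each of the 9 genes (vertical axis) in the 4 genotypes (horizontal axis), 1 point per array and a bar at the mean of 3. The 3 wt-/mt- arrays of Cd72 lie between 11.17 and 11.56, below the other 9 at 12.24 to 12.72, while the wt-/mt- arrays of Btla spread from 8.51 to 10.88.

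After loss of both alleles, 4 of the 6 expressed genes fell: Btla by 1.64, Cd72 by 1.08, Cd22 by 0.84 and Fcgr2b by 0.80 on the log2 scale. Siglecg and Ptpn6 were not called, at -0.32 and 0.50. The median change of the 6 was -0.82, against 0.05 for all kept genes. Over all kept genes, 9.94% were called lower in this comparison. In the weighted fit 3 of the 6 were called lower (Btla, Cd72 and Fcgr2b), where the share over all kept genes was 4.80%. With each array centred on its median, 880 kept genes were called higher and 1475 lower, against 1396 and 1139 without centring, and the same number of these receptors, 4, was called.

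**Figure D2:**
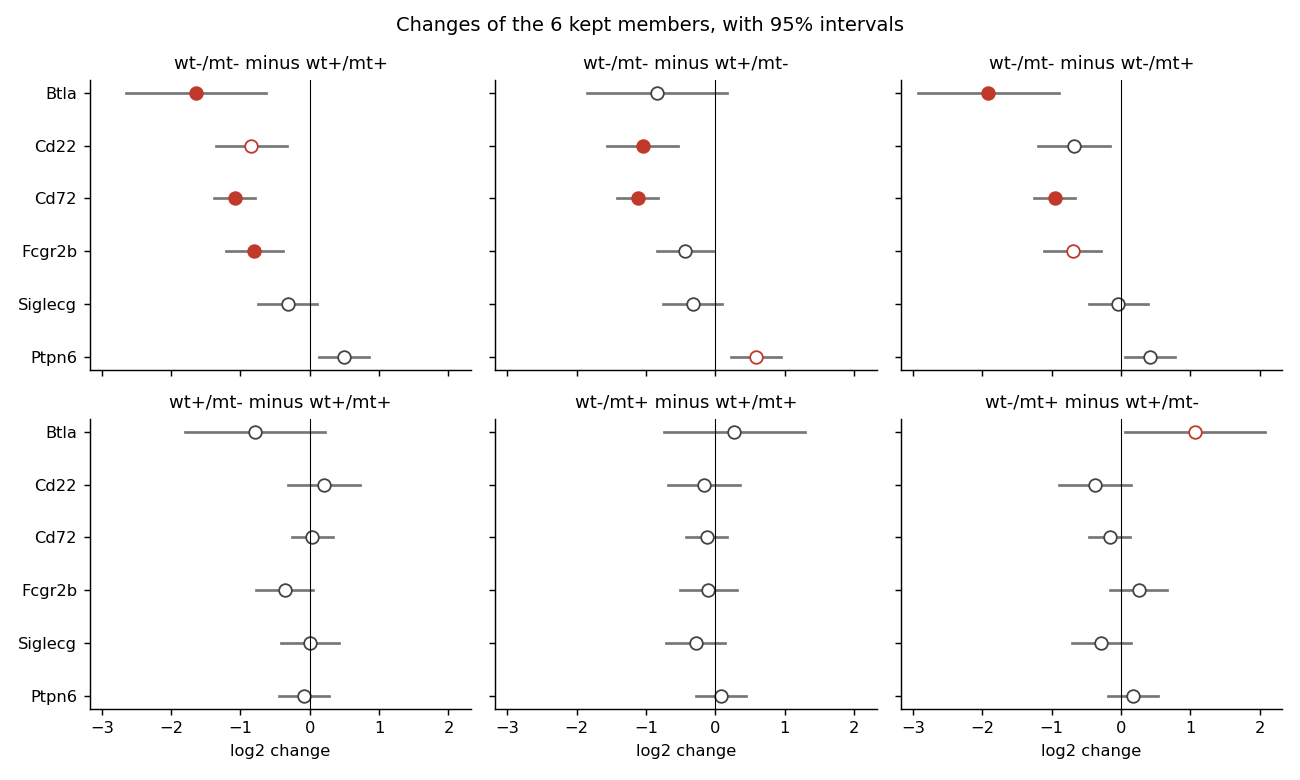
Log2 change with its 95% interval (horizontal axis) of each of the 6 expressed genes in the comparisons between genotypes. Filled red points were called in both fits, open red points in 1 of the 2 and grey points in neither; the called changes of the receptors lie in comparisons with wt-/mt-, apart from Btla in mt alone against wt alone, which was called in the weighted fit.

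Cd72, on chromosome 4 (GRCm38.p6, chr4:43447724-43455102), had the smallest SE of the receptors that fell. Its level was 12.47, 12.48 and 12.46 with both alleles, 12.33, 12.24 and 12.47 with mt alone, 12.72, 12.26 and 12.54 with wt alone, and 11.43, 11.56 and 11.17 with neither allele. All 3 wt-/mt- arrays lay below all 9 others, and the remaining genotypes overlapped with each other. Loss of both alleles lowered it 2.12-fold (change -1.08, SE 0.14, limma adjusted p = 0.000604, weighted fit 0.00519). The wt loss in mt- cells gave -1.12 (SE 0.14, limma adjusted p = 0.00072, weighted 0.0088), and the mt loss in wt- cells gave -0.96 (SE 0.14, limma adjusted p = 0.00106, weighted 0.00961). These 3 comparisons share the wt-/mt- arrays and are not independent. Their calls held under all 20 alternatives.

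The interaction asks whether wt loss changes a gene differently in mt- than in mt+ cells. For Cd72 the wt loss gave -1.12 in mt- and -0.12 in mt+ cells, a difference of -0.995 (SE 0.19, limma adjusted p = 0.0216, weighted fit 0.0288). It was the 1 gene of the 6 with a called interaction, where 2.30% of all kept genes were called lower and, in the weighted fit, 2.44%. At an unadjusted p under 0.05, 2 of the 6 genes passed, as did 2104 of all 11458 kept genes. The 2 were Cd72 and Cd22, the latter at -0.88 (SE 0.33, limma adjusted p = 0.189). The call of Cd72 was lost on leaving out any 1 of wt+/mt+ replicates 1, 2 and 3 (adjusted p 0.0683, 0.0615 and 0.0635) or wt-/mt+ replicate 1 or 3 (0.0578 and 0.0592), with a change between -1.12 and -0.89 whichever array was left out.

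Cd22 (chr7:30865404-30880342) was measured by 2 probe sets that shared their direction and differed in size. The brighter lay at 13.37, 13.59 and 13.59 with both alleles, 13.44, 13.46 and 13.14 with mt alone, 13.92, 13.62 and 13.63 with wt alone, and 12.98, 13.03 and 12.01 with neither allele. The wt-/mt- arrays were the 3 lowest, the last of them by a wide gap. Loss of both alleles gave -0.84 (SE 0.23, limma adjusted p = 0.0272, weighted fit 0.0600), the wt loss in mt- cells -1.05 (SE 0.23, limma adjusted p = 0.0150, weighted 0.0488), and the mt loss in wt- cells -0.68 (SE 0.23, limma adjusted p = 0.0627). The first of these was not called on leaving out any 1 of wt+/mt+ replicates 1, 2 and 3 (adjusted p 0.0527, 0.0872 and 0.0845) and was -0.51 without wt-/mt- replicate 3, and the second was not called without wt+/mt- replicate 1 (-0.95, adjusted p 0.0655). That array and wt+/mt- replicate 2 had the raised actin differences (2.17 and 1.71), whose part in this was not tested. Without both arrays the second change was -0.95. The mutant loss was called without wt-/mt- replicate 1 (-0.83, adjusted p 0.0330) or replicate 2 (-0.85, adjusted p 0.0276), on the mean of both probe sets (-0.97, adjusted p 0.0113) and with centred arrays (-0.72, adjusted p 0.0493), and it was -0.34 without wt-/mt- replicate 3 (adjusted p 0.0911).

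The second Cd22 probe set lay at 10.74, 10.86 and 10.93 with both alleles, 10.37, 10.93 and 10.38 with mt alone, 11.03, 10.70 and 10.51 with wt alone, and 9.51, 9.53 and 8.82 with neither allele. Here too the 3 wt-/mt- arrays lay below the 9 others. In the fit over all probe sets its change was -1.56 for loss of both alleles (SE 0.21, limma adjusted p = 0.00130), -1.46 for the wt loss in mt- cells (limma adjusted p = 0.00307) and -1.27 for the mt loss in wt- cells (limma adjusted p = 0.00388). Each was called in the weighted fit and whichever of the 12 arrays was left out.

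Siglecg (chr7:43408192-43418349), which encodes the other Siglec, was not called in any comparison. Its level was 11.08, 11.21 and 11.14 with both alleles, 10.94, 10.82 and 10.83 with mt alone, 11.30, 11.08 and 11.05 with wt alone, and 11.28, 10.88 and 10.31 with neither allele. Replicates 1 and 2 of wt-/mt- lay within the range of the other 9 arrays and replicate 3 lay below it. The change after loss of both alleles was -0.32 (SE 0.19, 95% interval -0.75 to 0.10, limma adjusted p = 0.245, weighted fit 0.308). It was called without wt-/mt- replicate 1, at -0.55 (adjusted p 0.0253), and so was the wt loss in mt- cells, at -0.55 (adjusted p 0.0316). Without wt-/mt- replicate 3 they were -0.07 and -0.07. The wt loss in mt+ cells gave -0.28, with 3 wt-/mt+ arrays all below the 3 wt+/mt+ arrays, and an adjusted p of 1.00.

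Fcgr2b (chr1:170960558-170976071) has 5 probe sets, 4 of them bright. The brightest lay at 13.08, 13.12 and 13.08 with both alleles, 12.96, 13.20 and 12.81 with mt alone, 12.68, 12.64 and 12.88 with wt alone, and 12.67, 11.82 and 12.39 with neither allele. The wt-/mt- arrays lay below all those of wt+/mt+ and wt-/mt+ and overlapped with wt+/mt-. Loss of both alleles gave -0.80 (SE 0.19, limma adjusted p = 0.0130, weighted fit 0.0383), a 1.74-fold decrease that was called under all 20 alternatives. The mt loss in wt- cells gave -0.70 (SE 0.19, limma adjusted p = 0.0236), which the weighted fit did not call (0.0667), nor did the fits without wt-/mt+ replicate 1 (-0.71, adjusted p 0.0608) or replicate 2 (-0.59, adjusted p 0.0962), and which was -0.46 without wt-/mt- replicate 2. The wt loss in mt- cells was not called, at -0.44 (SE 0.19, limma adjusted p = 0.138), except without wt-/mt- replicate 1 (-0.63, adjusted p 0.0265), and it was -0.20 without wt-/mt- replicate 2.

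Across the 4 bright probe sets of Fcgr2b, the change after loss of both alleles ran from -0.88 to -0.71, with adjusted p between 0.0117 and 0.0156 over all probe sets. For the dimmest of the 4 the levels were 11.15, 11.17 and 11.29 with both alleles, 11.05, 11.32 and 10.94 with mt alone, 10.27, 10.28 and 10.81 with wt alone, and 10.47, 9.94 and 10.57 with neither allele. In that probe set both genotypes without the mutant allele lay below both genotypes with it. In 1 other bright set they did so narrowly, at most 11.47 without mt and at least 11.48 with it. The bioD control split the arrays in the same way (12.32 to 12.93 against 13.35 to 13.56), and its part in this was not tested. In the dimmest of the 4, the mt loss in wt+ cells gave -0.75 (SE 0.19), with a limma adjusted p of 0.0880 in the shared fit and 0.0258 in the weighted fit. The other 3 bright sets gave between -0.52 and -0.36 there, with no call in either fit. Of these probe sets, those marked by the manufacturer as shared (suffixes _s_ and _x_) can bind related transcripts. They are the brightest set (_s_), which stood for the gene, and the next brightest (_x_). The probe set of Fcgr3, the activating Fc receptor gene nearest in sequence, was at a mean of 6.08 in wt+/mt+ and 6.16 in wt-/mt- (change 0.08, SE 0.15, limma adjusted p = 0.743).

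Btla (chr16:45223705-45252895) showed the largest change of the 6 and the widest spread. Its level was 11.11, 11.25 and 11.21 with both alleles, 11.73, 11.40 and 11.28 with mt alone, 10.13, 10.19 and 10.88 with wt alone, and 10.88, 9.27 and 8.51 with neither allele. Both genotypes without the mutant allele lay below both genotypes with it on every array, and wt-/mt- replicate 1 was level with the highest wt+/mt- array. The bioD control splits the 12 arrays in the same way (12.32 to 12.93 without mt, 13.35 to 13.56 with it), and its part in this difference was not tested. The 3 wt-/mt- arrays came in the same order, replicate 1 highest and replicate 3 lowest, as the mean of the B cell markers given above. Siglecg shared this order, and Cd22, Cd72, Fcgr2b and Ptpn6 did not. The part of the B cell marker level in this was not tested. Loss of both alleles lowered Btla 3.12-fold (change -1.64, SE 0.46, limma adjusted p = 0.0282, weighted fit 0.0332), and the mt loss in wt- cells 3.77-fold (change -1.91, SE 0.46, limma adjusted p = 0.0153, weighted 0.0162). The first was not called on leaving out any 1 of wt+/mt+ replicates 1, 2 and 3 (adjusted p 0.0682, 0.0826 and 0.0786) or without wt-/mt- replicate 2 (-1.50, adjusted p 0.0576) or 3 (-1.12, adjusted p 0.0581), and the second without wt-/mt+ replicate 1 (-1.78, adjusted p 0.0552) or 2 (-1.95, adjusted p 0.0501).

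The remaining comparisons of Btla turned on single arrays or on the fit. The wt loss in mt- cells gave -0.85 (SE 0.46, limma adjusted p = 0.247) and the interaction -1.12 (SE 0.65, limma adjusted p = 0.395), and neither was called. Without wt-/mt- replicate 1 both were, at -1.51 (adjusted p 0.00370) and -1.78 (adjusted p 0.0139), and without wt-/mt- replicate 3 they were -0.32 and -0.60. The mt loss in wt+ cells gave -0.79 (limma adjusted p = 0.476, weighted fit 0.0540). The comparison of mt alone with wt alone gave 1.07 (SE 0.46, limma adjusted p = 0.279), which was called in the weighted fit (0.0281), and the 3 wt-/mt+ arrays lay above the 3 wt+/mt- arrays.

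Ptpn6 (chr6:124720707-124738709) stood on the other side of 0. Its brighter probe set lay at 11.30, 11.34 and 11.35 with both alleles, 11.28, 11.53 and 11.43 with mt alone, 11.33, 11.13 and 11.27 with wt alone, and 12.12, 11.39 and 11.97 with neither allele. Replicates 1 and 3 of wt-/mt- were higher than every other array, and replicate 2 lay within the range of wt-/mt+. The change was 0.50 after loss of both alleles (SE 0.16, limma adjusted p = 0.0513, weighted fit 0.106), 0.41 after the mt loss in wt- cells (limma adjusted p = 0.0959), and 0.59 after the wt loss in mt- cells (SE 0.16, limma adjusted p = 0.0380, weighted 0.112). The change after loss of both alleles was called after quantile normalization (0.51, adjusted p 0.0471) and with an intensity trend (0.50, adjusted p 0.0485), and it was 0.35 without wt-/mt- replicate 1. The rise after the wt loss in mt- cells was called under 6 of the 20 alternatives, and leaving out any 1 of the 12 arrays except wt-/mt- replicate 2 ended it, with a change between 0.44 and 0.63 and an adjusted p between 0.0531 and 0.131. Without wt-/mt- replicate 2, the changes were 0.72 for loss of both alleles (adjusted p 0.00171), 0.80 for the wild-type loss (adjusted p 0.00110), 0.63 for the mutant loss (adjusted p 0.00296) and 0.72 for the interaction (adjusted p 0.0156), all of them called. The second probe set gave 0.35 after loss of both alleles (SE 0.16, limma adjusted p = 0.148) and 0.41 after the wt loss in mt- cells (limma adjusted p = 0.167). In the fit over all probe sets, the brighter set was not called after the wt loss in mt- cells either (limma adjusted p = 0.0562).

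Pecam1, Lair1 and Cd5 lay below the array median in all genotypes. Pecam1 (chr11:106654213-106715281) lay between 4.47 and 4.96 on 11 arrays and at 6.12 in wt-/mt- replicate 1, and its change after loss of both alleles was 0.49 (SE 0.29, limma adjusted p = 0.273). The 3 probe sets of Lair1 (chr7:4007073-4073567) had wt-/mt- means of 5.43, 5.22 and 4.51 against wt+/mt+ means of 4.93, 4.75 and 4.00. The dimmest was called higher after loss of both alleles at 0.50 (SE 0.13, limma adjusted p = 0.0268), but not in the weighted fit (0.0583) and not without wt+/mt+ replicate 1 or 3 or wt-/mt- replicate 1 or 3, with an adjusted p of up to 0.0960. The other Lair1 sets gave 0.51 and 0.47 and passed without wt-/mt- replicate 2 (lowest adjusted p 0.00842 and 0.0111). Cd5 (chr19:10718107-10739026) lay at 4.77, 4.96 and 4.91 with both alleles, 5.03, 4.90 and 4.96 with mt alone, 5.43, 5.29 and 5.19 with wt alone, and 4.96, 5.15 and 5.43 with neither allele. Its 3 wt+/mt- arrays lay above all wt+/mt+ arrays, by 0.42 (SE 0.12, limma adjusted p = 0.118, weighted fit 0.0368), where the weighted fit called 4.00% of all probe sets. At levels below the array median, none of these values separates expression from background.

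**Figure D3:**
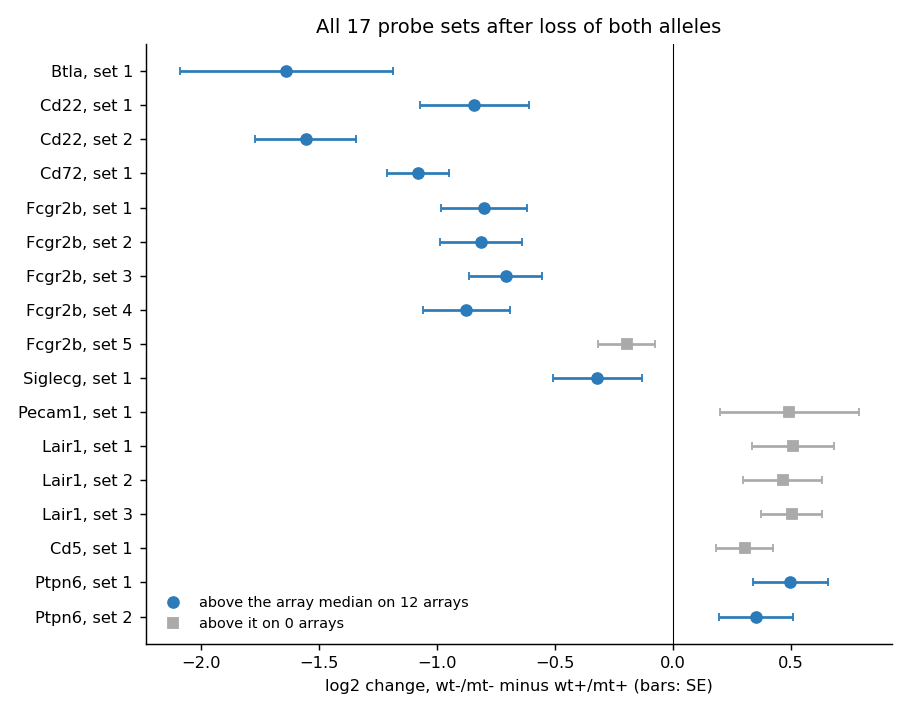
Log2 change after loss of both alleles, wt-/mt- minus wt+/mt+, with its SE (horizontal axis), for each of the 17 probe sets, numbered from the brightest within a gene. Circles mark the 11 probe sets above the array median on all 12 arrays and squares the 6 above it on 0 arrays; the 2 sets of Cd22 lie at -0.84 and -1.56 and the 4 bright sets of Fcgr2b between -0.88 and -0.71.

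Over all 17 probe sets, loss of both alleles called 8 lower and 1 higher, where 14.2% of all 45101 probe sets were called in either direction. The 8 were those of Btla and Cd72, both of Cd22 and the 4 bright ones of Fcgr2b, so they stand for 4 genes. The wt loss in mt- cells called 3 lower (5.81% of all probe sets called), namely those of Cd72 and both of Cd22. The mt loss in wt- cells called 7 lower (11.0% of all probe sets called), which were those of Btla and Cd72, the dimmer of Cd22 and the 4 bright ones of Fcgr2b. In the weighted fit the 3 comparisons called 8, 3 and 5 lower and 0 higher, where 7.47%, 2.85% and 6.71% of all probe sets were called. Leaving out 1 array gave 5 to 9 lower for loss of both alleles, the fewest without wt+/mt+ replicate 2, and 2 to 6 for the wt loss, with 2 without wt+/mt- replicate 1 or 2 and 6 without wt-/mt- replicate 1. For the mt loss the range was 2 to 8, with 4 without wt-/mt+ replicate 3 and 2 without wt-/mt+ replicate 1 or 2, which were those of Cd72 and the dimmer of Cd22. One bright set of Fcgr2b kept this call in 2 of the 12 such fits. Without wt-/mt- replicate 2, the 3 comparisons called 5, 4 and 5 of the 17 higher. These were both sets of Ptpn6 and sets of Lair1, so they stand for 2 genes. The Lair1 sets lay below the array median, where expression is not separated from background. Over all kept genes, not probe sets, 13.9%, 8.82% and 10.1% were called higher in that fit. Shares over all probe sets were not counted for the fits with 1 array left out. Over the 11458 kept genes, the calls in these fits ran from 1254 to 3138 for loss of both alleles. They ran from 664 to 2536 for the wt loss and from 1118 to 2987 for the mt loss.

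The wt-/mt- genotype was also set against each genotype that keeps a single allele. The wt loss in mt- cells lowered Cd22 and Cd72 (2 of 6, with 8.22% of all kept genes called lower) and raised Ptpn6 (6.35% called higher); the weighted fit called the same 2 falls (2.65% called lower) and 0 rises. The mt loss in wt- cells lowered Btla, Cd72 and Fcgr2b (3 of 6, with 11.1% of all kept genes called lower), and the weighted fit called Btla and Cd72 (5.27%). The median change of the 6 was -0.64 in the first and -0.69 in the second of these comparisons, against -0.01 and 0.01 for all kept genes. With centred arrays the mutant loss called 855 kept genes higher and 1475 lower, against 1117 and 1269 without centring. An F test over the 4 genotypes called Btla (limma adjusted p = 0.0400), Cd22 (0.0345), Cd72 (0.00106) and Fcgr2b (0.0361), where 19.2% of all kept genes were called; the weighted fit called Btla, Cd72 and Fcgr2b (0.0154, 0.0142 and 0.0458), and not Cd22 (0.0568), where 13.4% were called. On leaving out any 1 of wt+/mt+ replicates 1 to 3, wt-/mt+ replicates 1 and 2 and wt+/mt- replicates 1 and 2, the F test called 1 of the 6, and without wt-/mt+ replicate 3 it called 2. The share over all kept genes was not counted for the F test in these fits. Whether these genes lost calls more than other genes did is therefore not known.

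With 1 allele left, none of the 6 genes was called against wt+/mt+ in limma's fit or the weighted fit. In the shared fit 0 of the 6 reached an unadjusted p under 0.05. Of all 11458 kept genes, 1704 did so for the mt loss in wt+ cells and 412 for the wt loss in mt+ cells. For the mt loss in wt+ cells, 0.183% of all kept genes were called in either direction (8.29% in the weighted fit), and the changes of the 6 ran from -0.79 for Btla to 0.21 for Cd22. For the wt loss in mt+ cells, 0% were called (0.166% in the weighted fit), and the changes ran from -0.28 for Siglecg to 0.27 for Btla. The 95% intervals allow sizable changes: -1.81 to 0.22 for Btla and -0.26 to 0.34 for Cd72 after the mutant loss. For mt alone against wt alone, limma's shared fit called 0 of the 6 and 0.0873% of all kept genes. At an unadjusted p under 0.05, 1 of the 6 passed, as did 1881 of all 11458 kept genes. The weighted fit called 1 of the 6, Btla, and 7.29% of all kept genes.

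As a description over 12 arrays, with no test, the kept genes whose levels correlated best with each receptor that fell were Mybl1 (r = 0.98) and Cdc25b (0.98) for Btla, Rmc1 (0.98) and Zfp677 (0.98) for Cd22, Arhgap45 (0.97) and Camkk2 (0.96) for Cd72, and Serp1 (0.96) and Ddx5 (0.96) for Fcgr2b. These values rest on the same arrays and genotypes. Only 2 genes were taken for each receptor, so whether they share names says little. Among these receptors themselves, r over the 12 arrays ran from 0.49 (Cd22 with Fcgr2b) to 0.87 (Cd22 with Cd72). The receptors were taken because they differed between genotypes, and a shared fall in wt-/mt- by itself raises this r. With the genotype means removed, r ran from -0.35 (Cd72 with Fcgr2b) to 0.60 (Btla with Cd22), and for Cd22 with Fcgr2b it was -0.11.

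The molecules around the receptors were taken from lists chosen with earlier results of these data known. After loss of both alleles, 9.94% of all kept genes were called lower and 12.2% higher. Of 16 effectors that act beside SHP-1, 13 were kept, and 1 rose and 1 fell (in the weighted fit 0 and 1), with a median change of -0.04 against 0.05 for all kept genes. The gene that fell was Inppl1, which encodes the inositol phosphatase SHIP2, with levels of 11.32, 11.58 and 11.42 in wt+/mt+ and 10.54, 10.66 and 9.13 in wt-/mt- (change -1.33, SE 0.32, limma adjusted p = 0.0158, weighted 0.0222). It was not called without wt+/mt+ replicate 2 (adjusted p 0.0603) and was -0.84 without wt-/mt- replicate 3. The adaptor gene Grb2 rose by 0.52 (SE 0.17, limma adjusted p = 0.0443), not in the weighted fit (0.104), and under 5 of the 20 alternatives. Among single arrays left out, only the fit without wt-/mt- replicate 2 called Grb2, with changes over the 12 such fits between 0.34 and 0.72. Inpp5d, which encodes the SHIP that FcγRIIB recruits, was not called at 0.34 (SE 0.24, limma adjusted p = 0.336), and the value ran from -0.0012 without wt-/mt- replicate 3 to 0.62 without replicate 2, where it was called.

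Of 25 other inhibitory receptors of leukocytes, 21 were matched on the array and 10 kept, with a median change of 0.04. The gene called was Tgfbr1, a receptor chain for TGF-beta, with levels of 7.56, 7.52 and 7.29 in wt+/mt+ and 8.25, 8.36 and 8.68 in wt-/mt- (change 0.98, SE 0.15, limma adjusted p = 0.00164, weighted 0.0192). It was called under all 20 alternatives, with a change of 0.36 on the mean over its probe sets. Of 14 ligands and ligand-making enzymes, 12 were matched and 7 kept, with a median of -0.10. The gene called was St6gal1, the sialyltransferase that makes the α2,6-linked sialic acid bound by CD22, with levels of 12.53, 12.50 and 12.50 in wt+/mt+ and 11.15, 11.08 and 12.42 in wt-/mt- (change -0.96, SE 0.28, limma adjusted p = 0.0316, weighted 0.0261). Replicate 3 of wt-/mt- was close to wt+/mt+, and on leaving out any 1 wt+/mt+ array or wt-/mt- replicate 1 (-0.76) or 2 (-0.72) the gene was not called, with an adjusted p of up to 0.0845.

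Of 24 components of the B cell receptor and its activating co-receptors, 21 were kept; 6 fell and 1 rose (4 and 0 in the weighted fit), with a median of -0.23. The gene that rose was the complement receptor gene Cr2 (1.07, SE 0.35, limma adjusted p = 0.0498, weighted 0.0559), called under 4 of the 20 alternatives and lost on leaving out any 1 array of the other 3 genotypes (adjusted p of up to 0.13; changes over single arrays left out from 0.56 without wt-/mt- replicate 1 to 1.48 without replicate 3). Those that fell beside the genes named next were Cd79b and Pik3cd, a PI3-kinase subunit gene (-0.66, SE 0.13, limma adjusted p = 0.00747, weighted 0.0675). The mean of Pik3cd was 14.40 with both alleles, 14.31 with mt alone, 13.71 with wt alone and 13.74 with neither allele. The bioD control also splits the arrays by mt, and its part in this was not tested. The 4 with the largest change were Blk, a Src-family kinase (-1.87, SE 0.45, limma adjusted p = 0.0157), Syk, the kinase recruited to the receptor (-1.52, SE 0.35, 0.0123), Nfatc1, a calcium-regulated transcription factor (-1.18, SE 0.30, 0.0187), and Ighm, the heavy chain of IgM (-1.14, SE 0.25, 0.00946). Blk was at 10.10, 10.34 and 10.32 in wt+/mt+ and at 7.02, 9.27 and 8.87 in wt-/mt-, Syk at 10.10, 10.23 and 9.88 and at 9.28, 8.70 and 7.66, and Ighm at 14.26, 14.06 and 14.15 and at 13.26, 12.29 and 13.49. No array of wt-/mt- reached wt+/mt+ in these 3 genes. For Syk the means with mt alone (9.06) and wt alone (9.43) lay between those of wt+/mt+ (10.07) and wt-/mt- (8.55). Syk was called under all 20 alternatives, Ighm under all but the mean over its probe sets (-0.07), and Blk under all but the fits without wt+/mt+ replicate 2 or 3 (adjusted p of up to 0.0552), with -1.19 without wt-/mt- replicate 1. Nfatc1 was not called in the weighted fit (0.115) or on leaving out any 1 of the 3 wt+/mt+ arrays. Of the 6 B cell markers, 2 fell, Cd79b (-0.96, SE 0.24, limma adjusted p = 0.0170) and Ebf1 (-0.71, SE 0.15, 0.00998), with Ebf1 not called in the weighted fit (0.0759) and Cd79b not called without wt+/mt+ replicate 1 or 2 (adjusted p of up to 0.0627). Of 4 kept plasma cell markers, Xbp1 fell (-1.33, SE 0.26, limma adjusted p = 0.00630), and 0 of the kept T cell, myeloid, endothelial, NK cell and platelet markers were called in either fit.

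**Figure D4:**
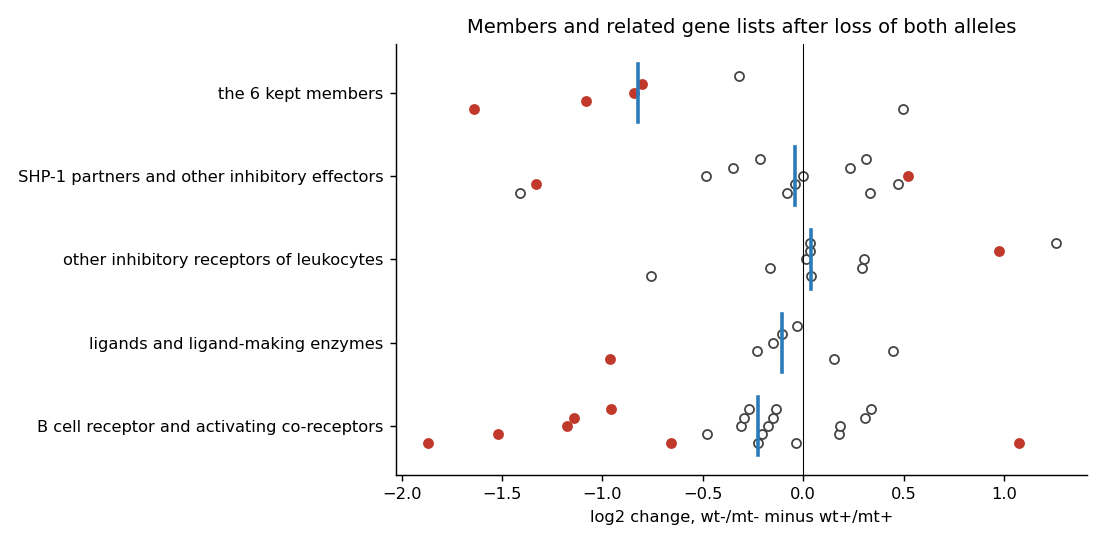
Log2 change after loss of both alleles (horizontal axis) of the 6 expressed genes and of the kept genes of 4 related lists, 1 point per gene. Filled red points were called in limma's shared fit and the vertical line is the median of each row, from -0.82 for the 6 genes to 0.04 for the other inhibitory receptors.

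Among the 2 other comparisons with wt-/mt-, the effectors gave 0 rises and 2 falls after wt loss in mt- cells (Inppl1 and Csk) and 2 rises and 2 falls after mt loss in wt- cells (Ptpn11 and Cblb, and Inppl1 and Ptpn18), of which the weighted fit called 0. Over all kept genes, 6.35% were called higher and 8.22% lower in the first (0.829% and 2.65% in the weighted fit), and 9.75% higher and 11.1% lower in the second (2.78% and 5.27%). Csk, the kinase that holds Src-family kinases inactive, changed by -0.52 in the first (SE 0.12, limma adjusted p = 0.0189), and Ptpn11, which encodes SHP-2, by 0.35 in the second (SE 0.11, limma adjusted p = 0.0462). The components of the B cell receptor gave 2 and 5 falls among 21 kept genes, and 0 and 3 in the weighted fit, beside those same shares. These comparisons share the wt-/mt- arrays with the loss of both alleles.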

How the data were processed

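RNA of 12 samples of a murine BL line was hybridised to Affymetrix arrays after 3' IVT labelling, per the labels' protocols. The deposited log2 levels, 1 for each probe set, are RMA output according to the submitters' processing notes (no version); the log base follows the usual RMA output and the range, 3.09 to 15.57. RMA normalizes across arrays, so a shift shared by most genes is largely removed. Array medians were 6.08 to 6.25, 0 pairs of arrays held identical values, and the number of arrays limits the precision. Gene names come from the platform annotation in GEO and were checked against RefSeq: of 45101, 34958 had 1 gene, 932 several and 9211 none. The brightest probe set by mean stood for its gene, which was kept if that set lay above the array median in at least 3 arrays, which left 11458 genes.

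Tests were made in R 4.3.3 with lmFit and eBayes of limma 3.58.1, fitting a mean for each genotype to all 12 arrays, with Benjamini-Hochberg adjustment over all kept genes, or over all probe sets for the members' own probe sets, and were tested on simulated data. The weighted fit used arrayWeights by genotype. Genotypes came from the labels; array numbers run on from 1 genotype to the next, and no block was fitted. Named genes were the 9 members, Foxo1, up to 4 called genes of each related list with the largest change after loss of both alleles, and the 2 kept genes with the highest Pearson r for each member called by the F test; Fcgr3, Inpp5d, Cr2, Pik3cd, Csk, Ptpn11, Cblb and Ptpn18 were named after their values were seen. The members and lists were chosen with earlier results of these data known. Alternatives were the weighted fit, the mean over probe sets, no filter, a stricter filter (above percentile 60), median centring, quantile normalization, an intensity trend, leaving out each array, and leaving out wt+/mt- replicates 1 and 2.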

Additional observations from a re-analysis of the deposited data

Results flagged for a closer look

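The interaction of Cd72 was singled out because the effect of losing the wild-type allele differed between the backgrounds without and with the mutant allele, by a test of that difference itself. The difference was -0.995 (SE 0.19, limma adjusted p = 0.0216).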

How the results depend on the processing

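Over 8 counts of called members and 20 alternatives, 132 of 160 counts stayed within 1.5 times the main count, 23 were lower and 5 higher. The weighted fit called 1 member for mt alone against wt alone, where the main fit called 0. With 1 array left out, the calls over all kept genes ran from 1254 to 3138 for loss of both alleles. They ran from 664 to 2536 for wt loss in mt- cells, 1118 to 2987 for mt loss in wt- cells and 118 to 994 for the interaction. Among the members, leaving out 1 array gave 2 to 5 called for loss of both alleles and 1 to 5 for wt loss in mt- cells. It gave 1 to 5 for mt loss in wt- cells, 0 to 2 for the interaction and 1 to 4 for the F test. For the F test, the share over all kept genes was not counted in these fits. Without wt+/mt- replicates 1 and 2, whose remaining array is assumed to vary like the other groups, the counts were 2 for loss of both alleles, 1 for wt loss in mt- cells, 0 for the interaction and 1 for the F test. Of 840 changes of single members, 775 kept direction and side of the threshold, 38 were no longer called, 15 became called and 12 changed sign. Those that changed sign were small and uncalled; for mt loss in wt+ cells, Cd72 was -0.042 and Siglecg -0.077 with centred arrays, Siglecg was -0.094 without wt+/mt- replicates 1 and 2, and leaving out 1 array gave -0.070 to 0.16 for Cd72 and -0.076 to 0.050 for Siglecg. For mt loss in wt- cells, Siglecg was 0.013 after quantile normalization and -0.27 to 0.21 with 1 array left out, and its interaction was 0.052 without wt+/mt- replicates 1 and 2 and -0.27 to 0.21 with 1 array left out. Inpp5d after loss of both alleles ran from -0.0012 to 0.62 with 1 array left out. Over all kept genes, the calls for loss of both alleles fell from 2535 to 866 in the weighted fit, for wt loss in mt- cells from 1670 to 399, and for mt loss in wt- cells from 2386 to 923, while for mt loss in wt+ cells they rose from 21 to 950 and for mt alone against wt alone from 10 to 835. The cause was not tested. No paired analysis was possible because the groups share no array numbers.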
